A study of Mus musculus with 3 samples.

Results

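The 44 genes described here encode the DNA replication and nucleotide synthesis machinery, out of 55487 genes in the deposited table. They were taken from that table by gene symbol, and each symbol matched 1 gene. By role they comprise 8 origin licensing and MCM helicase genes, 6 helicase activation genes, 6 polymerase and primase genes, 8 genes of the clamp, clamp loader and single-strand binding protein, and 3 genes of Okazaki fragment processing. The others are 4 genes of deoxynucleotide synthesis, 3 of chromatin behind the fork, 4 of checkpoint and repair, and the E2F activators E2f1 and E2f2. RNA was sequenced from wild-type mouse BMDCs (dendritic cells derived from bone marrow in culture, which take up microbes and present their antigens). One library came from cells treated with YB328, a gut bacterial strain, another from cells treated with P. vulgatus, the gut bacterium Phocaeicola vulgatus, and the third from untreated cells. With 1 library per group no difference has a replicate check and no p-value is given. How long and at what dose the cells met the bacteria, and in what form, is not stated in the labels.

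Replication starts when ORC, Cdc6 and Cdt1 load the ring-shaped MCM helicase onto origins in G1, and Cdc45 and the GINS complex switch it on in S phase. Polymerase alpha with primase lays down primers, the clamp loader RFC places the sliding clamp PCNA, polymerases delta and epsilon copy the strands, and Fen1, Dna2 and Lig1 join the Okazaki fragments. Ribonucleotide reductase, thymidylate synthase and thymidine kinase supply the deoxynucleotides, and E2F factors switch on many of these genes as cells enter S phase. In marrow cultures, precursors divide before they become dendritic cells.

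The deposited counts summed to 26924006.2 with YB328, 26660869.8 with P. vulgatus and 15538132.9 in untreated cells. Nuclear protein-coding genes other than Lars2 held 96.6%, 95.3% and 57.9% of the counts in the YB328, P. vulgatus and untreated libraries, and the mitochondrial chromosome held 0.899%, 1.25% and 17.3%. Ribosomal RNA of nuclear genes held 0.386%, 0.789% and 9.54% in the same libraries, and Lars2 held 0.157%, 0.309% and 6.72%. All 12 dendritic cell markers reached 5 CPM in each library (CPM, counts scaled to library size by the trimmed mean of M values). They summed to 18679.5, 19177 and 10343 CPM in the YB328, P. vulgatus and untreated libraries, and 8 of the 12 were above the untreated level with each bacterium. By the 3 conditions given below, 3 (25.0%) were higher with each bacterium, near the 24.7% and 25.2% of all genes at 5 CPM. With YB328 1 was lower, and with P. vulgatus 2 were. Itgax, which encodes CD11c, was among the 4 below the untreated level with each bacterium. It was at 75.5 CPM with YB328, 22.6 CPM with P. vulgatus and 272 CPM in untreated cells. The 13 neutrophil markers summed to 763, 688 and 4870.2 CPM in the YB328, P. vulgatus and untreated libraries, and none was at 0. The 12 myeloid progenitor markers summed to 77.7, 63.9 and 153 CPM in the same libraries, and the 8 stroma markers summed to 24.7, 28.9 and 555 CPM. The 10 macrophage markers summed to 975, 677 and 470.0 CPM, the 8 erythroid and megakaryocyte markers to 87.3, 101 and 142 CPM, and the 8 lymphocyte markers, none of which reached 5 CPM, to 2.35, 8.97 and 4.65 CPM. The part of these differences in the results below was not tested.

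Most of the replication genes were at lower levels in the libraries from bacteria-treated cells. Together the 44 genes had 637 CPM with YB328, 583 CPM with P. vulgatus and 1179 CPM in untreated cells. Scaled instead to the total of nuclear protein-coding genes without Lars2, the sums were 668, 607 and 2031 CPM in the same libraries. As TPM, the deposited measure per transcript length, they were 415, 365 and 636. In such bulk RNA, fewer dividing cells and less RNA per cell cannot be told apart.

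"Rose" and "fell" are used below only for genes that met 3 conditions: at least 5 CPM in at least 1 of the 3 libraries, a 2-fold or larger ratio once 0.5 CPM was added to each level, and an exact 95% interval of the count ratio clear of 1. Intervals express counting error alone. With YB328, 21 members fell and 1 rose relative to untreated cells, and 20 did not pass. Over the whole table, 18.3% of the 10699 genes that reached 5 CPM fell in that comparison and 24.7% rose. With P. vulgatus, 25 members fell, 2 rose and 15 did not pass, where 18.8% of all genes fell and 25.2% rose. The remaining 2 members, Gins1 and Exo1, were below 5 CPM in every library. For 14 members the minimum was reached in untreated cells alone, so these could pass mainly as lower genes: Cdc6, Mcm10, Cdc45, Pola1, Prim1, Prim2, Pole, Pclaf, Rfc4, Rrm2, Clspn, Brca1, Brca2 and E2f2. Rfc5 reached it with the bacteria alone. Over the 42 members at the minimum the median log2 ratio was -0.98 with YB328 and -1.46 with P. vulgatus, beside 0.17 and 0.15 over the 10699 genes. Over all 44 members it was -1.11 with YB328 and -1.46 with P. vulgatus. These comparisons share the untreated library and are given side by side.

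**Figure D1:**
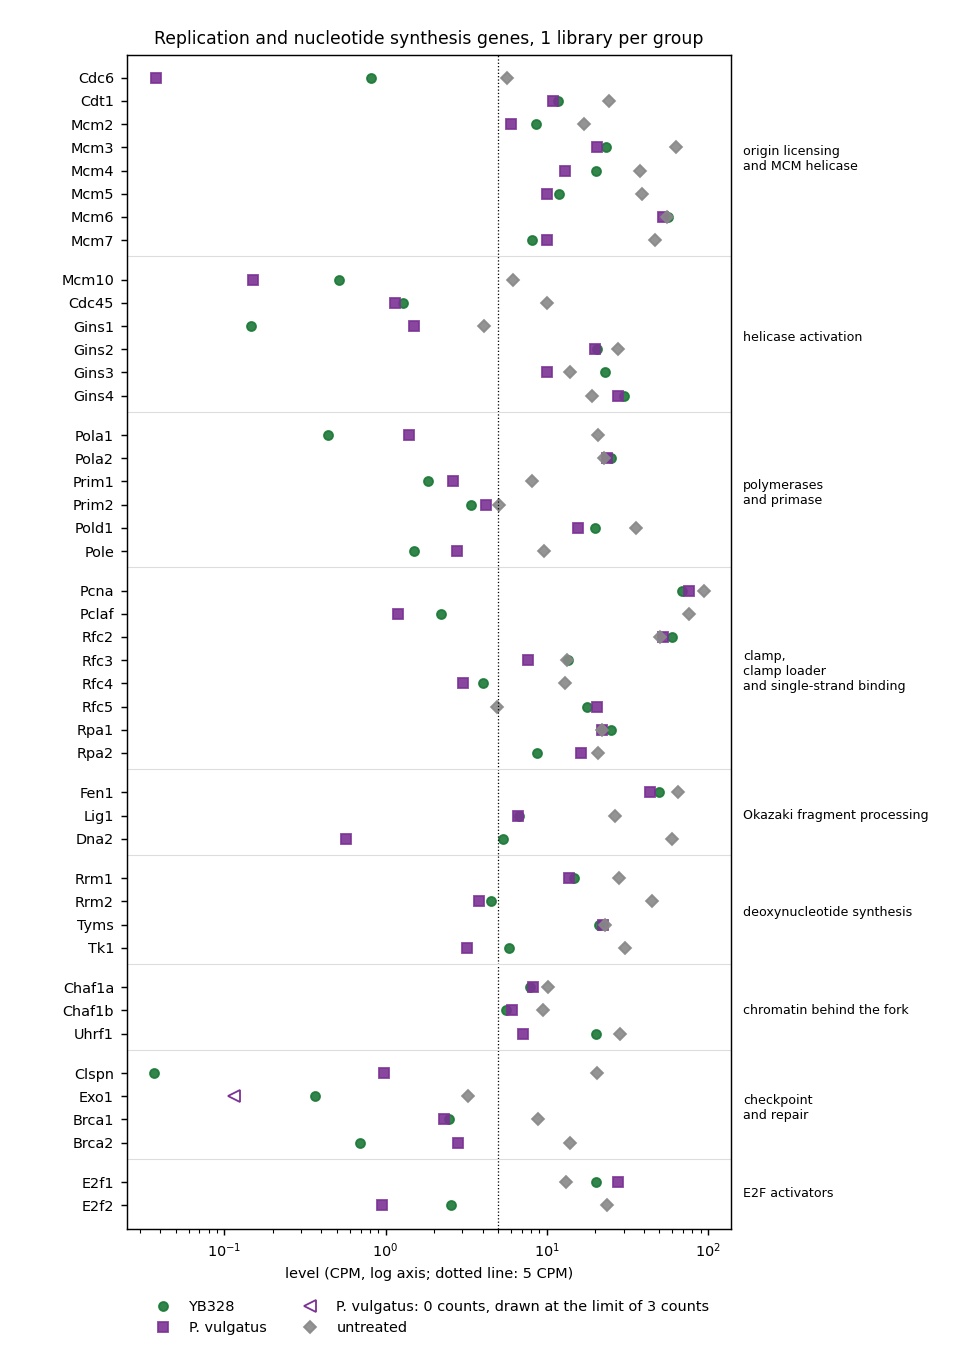
Level of each of the 44 members in CPM (log axis), grouped by role, with 1 point per library and no error bars because each group is 1 library. Most untreated points lie to the right, while Mcm6, Pola2 and Tyms nearly coincide and Rfc5, Gins4 and E2f1 are lowest in untreated cells; the open triangle marks Exo1 with P. vulgatus, at 0 counts.

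The changes were not uniform within complexes, and the promoters of 6 members are shown because their genes include large decreases, nearly even levels and a rise. Clspn, Pclaf and Pola1 had the lowest log2 ratios of all members with YB328. Mcm6 and Pola2 stayed at 56.3 and 25.2 CPM with YB328, 52.4 and 23.8 CPM with P. vulgatus, and 55.6 and 22.7 CPM in untreated cells, and Rfc5 rose. Each sequence is the RefSeq promoter window (GRCm38.p6), 250 bases before to 50 after the start, written 5′ to 3′ on the gene's strand, with matches to an E2F motif in capitals:
Clspn (chr4:126556730-126557029, plus strand): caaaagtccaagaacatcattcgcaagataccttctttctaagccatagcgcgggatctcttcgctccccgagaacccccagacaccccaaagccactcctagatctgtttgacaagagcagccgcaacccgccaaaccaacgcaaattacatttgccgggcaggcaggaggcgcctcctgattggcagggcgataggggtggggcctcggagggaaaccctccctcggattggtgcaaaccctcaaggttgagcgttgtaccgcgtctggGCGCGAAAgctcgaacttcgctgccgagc
Pclaf (chr9:65890073-65890372, plus strand): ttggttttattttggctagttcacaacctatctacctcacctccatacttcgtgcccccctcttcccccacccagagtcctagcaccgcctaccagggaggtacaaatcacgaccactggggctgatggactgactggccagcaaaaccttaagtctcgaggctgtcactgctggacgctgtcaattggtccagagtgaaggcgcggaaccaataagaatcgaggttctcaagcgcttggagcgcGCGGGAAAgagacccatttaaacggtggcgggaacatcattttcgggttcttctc
Pola1 (chrX:93632106-93632405, minus strand): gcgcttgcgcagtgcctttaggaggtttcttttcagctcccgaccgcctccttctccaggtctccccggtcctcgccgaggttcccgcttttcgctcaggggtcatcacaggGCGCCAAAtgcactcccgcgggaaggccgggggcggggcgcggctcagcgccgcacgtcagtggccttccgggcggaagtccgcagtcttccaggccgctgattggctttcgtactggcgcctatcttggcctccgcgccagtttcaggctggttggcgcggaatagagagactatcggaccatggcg
Mcm6 (chr1:128359656-128359955, minus strand): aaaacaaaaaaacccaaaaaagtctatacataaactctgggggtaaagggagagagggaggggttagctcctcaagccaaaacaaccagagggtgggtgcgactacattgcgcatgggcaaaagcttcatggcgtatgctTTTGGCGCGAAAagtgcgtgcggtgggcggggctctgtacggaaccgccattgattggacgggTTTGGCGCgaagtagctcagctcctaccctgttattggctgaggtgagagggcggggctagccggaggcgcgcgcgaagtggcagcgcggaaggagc
Pola2 (chr19:5964157-5964456, minus strand): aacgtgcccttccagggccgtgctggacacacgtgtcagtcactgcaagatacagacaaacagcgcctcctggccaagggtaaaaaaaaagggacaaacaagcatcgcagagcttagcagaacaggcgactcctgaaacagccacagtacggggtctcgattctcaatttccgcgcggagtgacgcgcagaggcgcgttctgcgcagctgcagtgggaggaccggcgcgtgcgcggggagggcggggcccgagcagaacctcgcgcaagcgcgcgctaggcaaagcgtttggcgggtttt
Rfc5 (chr5:117388974-117389273, minus strand): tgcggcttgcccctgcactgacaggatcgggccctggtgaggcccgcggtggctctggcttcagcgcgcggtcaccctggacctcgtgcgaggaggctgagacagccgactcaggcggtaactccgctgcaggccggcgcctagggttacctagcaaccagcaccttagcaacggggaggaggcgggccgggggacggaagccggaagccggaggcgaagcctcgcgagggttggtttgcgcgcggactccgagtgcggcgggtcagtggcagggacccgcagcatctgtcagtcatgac

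The motif searched was any of TTTCCCGC, TTTCGCGC, TTTGCCGC or TTTGGCGC on either strand. The windows of Clspn, Pclaf and Pola1 hold 1 match each, and that of Mcm6, whose level did not pass in any comparison, holds 3, of which 2 overlap within the longer run of capitals. No match was found in the windows of Pola2 and Rfc5. RefSeq windows were found for 36 of the 44 members, and 16 of the 36 (44.4%) held a match, beside 2.60% of 27025 genes with a window and 4.90% of the 8289 such genes that reached 5 CPM. Of the members with a window, 11 of the 20 that fell with YB328 held a match, against 5 of the 15 that did not pass. The corresponding numbers with P. vulgatus were 13 of the 23 that fell and 3 of the 11 that did not pass. Of the risers, 0 of 1 with YB328 and 0 of 2 with P. vulgatus held a match. Clspn, Pclaf, Pola1, Cdc6, Brca2 and E2f2 fell and held a match, but reached 5 CPM in untreated cells alone and could pass mainly as lower genes. Whether a match goes with falling was not tested. The CHR element TTTGAA, known from late cell cycle genes and also searched on both strands, was in the windows of 13.9% of members and 20.2% of all genes. A CCAAT box on either strand was in 61.1% of members and 41.1% of all genes. The median GC content of members' windows was 57.8%, beside 52.7% for all windows and 60.7% for those of genes that reached 5 CPM. A match is a description of the letters, not a bound site.

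Among the origin licensing and MCM genes, 5 of 8 fell with YB328 and 7 of 8 fell with P. vulgatus, and none rose. Cdc6, the loader ATPase that brings the helicase to origins, had 22 counts (0.807 CPM) with YB328, 1 count (0.0379 CPM) with P. vulgatus and 88 counts (5.68 CPM) in untreated cells. It was 7.04-fold lower with YB328 (95% interval 4.37 to 11.8) and 150.0-fold lower with P. vulgatus (26.2 to 5991) than in untreated cells. Its partner Cdt1 was at 11.8, 10.9 and 24.2 CPM in the YB328, P. vulgatus and untreated libraries, 2.05-fold lower with YB328 (1.77 to 2.39) and 2.22-fold lower with P. vulgatus (1.90 to 2.60). The Cdt1 call with YB328 was lost under total count scaling and when 2 CPM was added before the log.

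The MCM subunits, which form a ring of equal parts, spread widely. Mcm7 had 8.07 CPM with YB328, 10.02 CPM with P. vulgatus and 47.3 CPM in untreated cells, falling 5.86-fold with YB328 (5.04 to 6.85) and 4.73-fold with P. vulgatus (4.10 to 5.45). Mcm5 was at 12.0, 10.1 and 38.9 CPM in the YB328, P. vulgatus and untreated libraries, and fell 3.24-fold with YB328 and 3.86-fold with P. vulgatus. Mcm2 (8.62, 5.98 and 17.1 CPM) and Mcm4 (20.3, 12.9 and 38.1 CPM) fell with P. vulgatus, by 2.86-fold and 2.95-fold. Their differences with YB328, 1.98-fold for Mcm2 (1.66 to 2.37) and 1.88-fold for Mcm4 (1.67 to 2.11), did not pass. Both did pass with scaling on nuclear protein-coding genes without Lars2, and Mcm2 also after thinning each library at random to the total count of the shallowest. Mcm6 stood apart, with counts of 1534, 1383 and 861 that correspond to 56.3, 52.4 and 55.6 CPM in the YB328, P. vulgatus and untreated libraries. Its ratio to untreated was 1.01 with YB328 (0.931 to 1.102), while for P. vulgatus the untreated level was 1.06 times as high (0.973 to 1.16). As TPM, Mcm6 was at 21.7, 18.8 and 16.1 in the YB328, P. vulgatus and untreated libraries. Nuclear protein-coding genes other than Lars2 held 57.9% of the untreated counts and 96.6% of those with YB328. The evenness of Mcm6, and of Pola2 and Tyms below, holds in CPM and need not hold on a nuclear total.

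Mcm3 was the licensing gene with the highest mean TPM. It had 634 counts (23.3 CPM) with YB328, 538 counts (20.4 CPM) with P. vulgatus and 980 counts (63.2 CPM) in untreated cells. It fell 2.72-fold with YB328 (2.46 to 3.01) and 3.10-fold with P. vulgatus (2.79 to 3.46). Its deposited TPM differed more, at 8.63 with YB328, 12.0 with P. vulgatus and 78.4 in untreated cells. The ratio of its count to its TPM corresponds to a mean transcript length of 3334 bases with YB328, 2056 bases with P. vulgatus and 928 bases in untreated cells. The annotated Mcm3 transcripts are a coding one of 3031 bases and retained-intron ones of 3431, 716, 900 and 607 bases.

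Of the helicase activation genes, Mcm10 and Cdc45 fell with each bacterium, and the GINS subunits measured above the minimum did not pass against untreated cells. Mcm10, which helps the loaded helicase to open DNA, had 14, 4 and 96 counts in the YB328, P. vulgatus and untreated libraries, or 0.514, 0.151 and 6.20 CPM. It was 12.1-fold lower with YB328 (6.85 to 22.9) and 40.9-fold lower with P. vulgatus (15.5 to 153). Cdc45, part of the active helicase, was at 1.28 CPM with YB328, 1.14 CPM with P. vulgatus and 10.1 CPM in untreated cells, 7.89-fold lower with YB328 (5.44 to 11.7) and 8.92-fold lower with P. vulgatus (6.01 to 13.7). Of the exon bases of Cdc45, 5.96% are shared with Ufd1 on the other strand, and the kit does not mark strand. Exons on the other strand also cover 7.25% of those of Mcm7 (Ap4m1), 5.79% of those of Lig1 (Zswim9) and 15.1% of those of Rfc2 (Lat2).

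The GINS subunits, which join Cdc45 and the MCM ring, had no common direction. Gins4 had 826 counts (30.3 CPM) with YB328, 735 counts (27.8 CPM) with P. vulgatus and 297 counts (19.2 CPM) in untreated cells, ratios of 1.58 for YB328 (1.38 to 1.81) and 1.45 for P. vulgatus (1.27 to 1.67) that did not pass. Gins3 was at 23.1 CPM with YB328, 10.1 CPM with P. vulgatus and 13.9 CPM in untreated cells. Its YB328 level was 1.66 times the untreated one (1.42 to 1.95), and its untreated level was 1.37 times the P. vulgatus one (1.14 to 1.64). Gins2 was at 20.4, 19.9 and 27.6 CPM in the YB328, P. vulgatus and untreated libraries, but 67.3% of its exon bases overlap Gse1 on the other strand. Gins1 had 4, 40 and 63 counts in the same libraries, or 0.147, 1.51 and 4.07 CPM, and stayed below the minimum.

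The subunits of polymerase alpha, the enzyme that starts new strands, differed from each other. Pola1, the catalytic subunit, had 12 counts (0.440 CPM) with YB328, 37 counts (1.40 CPM) with P. vulgatus and 322 counts (20.8 CPM) in untreated cells. It fell 47.2-fold with YB328 (26.6 to 92.3) and 14.8-fold with P. vulgatus (10.5 to 21.5). Pola2, the regulatory subunit of the same enzyme, had 687, 629 and 351 counts in the YB328, P. vulgatus and untreated libraries, or 25.2, 23.8 and 22.7 CPM. Its ratio to untreated was 1.11 with YB328 (0.977 to 1.27) and 1.05 with P. vulgatus (0.921 to 1.20). The level of Pola2 was thus nearly even in CPM while that of Pola1 fell.

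Prim1, the catalytic primase subunit, was at 1.83 CPM with YB328, 2.61 CPM with P. vulgatus and 8.13 CPM in untreated cells, falling 4.43-fold with YB328 (3.17 to 6.28) and 3.11-fold with P. vulgatus (2.30 to 4.24). Prim2, the large primase subunit, was at 3.41, 4.20 and 5.04 CPM in the same libraries and did not pass. Pole, the catalytic subunit of the leading-strand polymerase epsilon, fell 6.39-fold with YB328 and 3.48-fold with P. vulgatus, with 1.504, 2.76 and 9.62 CPM in the YB328, P. vulgatus and untreated libraries. Pold1, the catalytic subunit of polymerase delta, was at 19.96 CPM with YB328, 15.6 CPM with P. vulgatus and 35.7 CPM in untreated cells. Its difference was 1.79-fold with YB328 (1.59 to 2.02), which did not pass, and 2.29-fold with P. vulgatus (2.01 to 2.61), which did.

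In the group of clamp, loader and single-strand binding genes, 3 of 8 fell and 1 rose with YB328, and 2 fell and 1 rose with P. vulgatus. Pcna, which encodes the sliding clamp, had 1887.12, 2008.43 and 1461.57 counts in the YB328, P. vulgatus and untreated libraries, or 69.2, 76.04 and 94.3 CPM. Those levels did not pass, with untreated cells 1.36 times as high as YB328 (1.27 to 1.46) and 1.24 times as high as P. vulgatus (1.16 to 1.33). As TPM the Pcna levels were 68.3, 69.4 and 62.5, so its order among the libraries depends on the measure. Pclaf, which encodes a protein bound to PCNA at forks, had 60.58 counts (2.22 CPM) with YB328, 31.44 counts (1.19 CPM) with P. vulgatus and 1189.56 counts (76.8 CPM) in untreated cells. It fell 34.5-fold with YB328 (26.5 to 45.1) and 64.5-fold with P. vulgatus (45.8 to 96.7).

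The clamp loader subunits moved in different directions. Rfc5 had 485.4 counts (17.8 CPM) with YB328, 538.73 counts (20.4 CPM) with P. vulgatus and 76.71 counts (4.95 CPM) in untreated cells. It rose 3.60-fold with YB328 (2.81 to 4.62) and 4.12-fold with P. vulgatus (3.23 to 5.28), the only member to rise with YB328. Of the exon bases of Rfc5, 10.7% are shared with Wsb2 on the other strand, which was at 195, 162 and 66.9 CPM in the YB328, P. vulgatus and untreated libraries, and its part in the Rfc5 counts was not tested. Rfc4 went the other way, at 4.05, 3.02 and 12.9 CPM in the same libraries, and fell 3.19-fold with YB328 (2.52 to 4.07) and 4.28-fold with P. vulgatus (3.27 to 5.59). Its exons share 12.7% of their bases with a gene on the other strand that is not analysed here. Rfc2 (59.9, 52.6 and 50.6 CPM) and Rfc3 (13.5, 7.65 and 13.4 CPM) did not pass in either comparison.

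Rpa1 and Rpa2 encode subunits of the trimer that coats single-stranded DNA. Rpa1 was at 24.9 CPM with YB328, 21.9 CPM with P. vulgatus and 21.9 CPM in untreated cells. Rpa2 was at 8.73 CPM with YB328, 16.4 CPM with P. vulgatus and 20.9 CPM in untreated cells. It fell with YB328, by 2.39-fold (2.02 to 2.84), while its 1.28-fold difference with P. vulgatus did not pass.

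Of the genes that finish Okazaki fragments, Dna2 and Lig1 fell and Fen1 did not pass. Dna2, a nuclease and helicase that trims long flaps, had 145 counts (5.32 CPM) with YB328, 15 counts (0.568 CPM) with P. vulgatus and 934 counts (60.3 CPM) in untreated cells. It was 11.3-fold lower with YB328 (9.50 to 13.6) and 106-fold lower with P. vulgatus (64.0 to 190.4). Lig1, the ligase that seals the fragments, was at 6.75, 6.59 and 26.4 CPM in the YB328, P. vulgatus and untreated libraries, 3.91-fold lower with YB328 (3.28 to 4.68) and 4.01-fold lower with P. vulgatus (3.35 to 4.81). Fen1, the flap nuclease, had 1348.74, 1154.39 and 1008.16 counts in the same libraries, or 49.5, 43.7 and 65.1 CPM. Antisense gene Gm10143 covers 78.8% of the exon bases of Fen1 but had 2.03, 0.326 and 3.86 CPM. Tmem258, also on the other strand, shares 5.37% of them and was at 72.2, 54.6 and 56.3 CPM. Its part in the Fen1 counts was not tested.

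**Figure D2:**
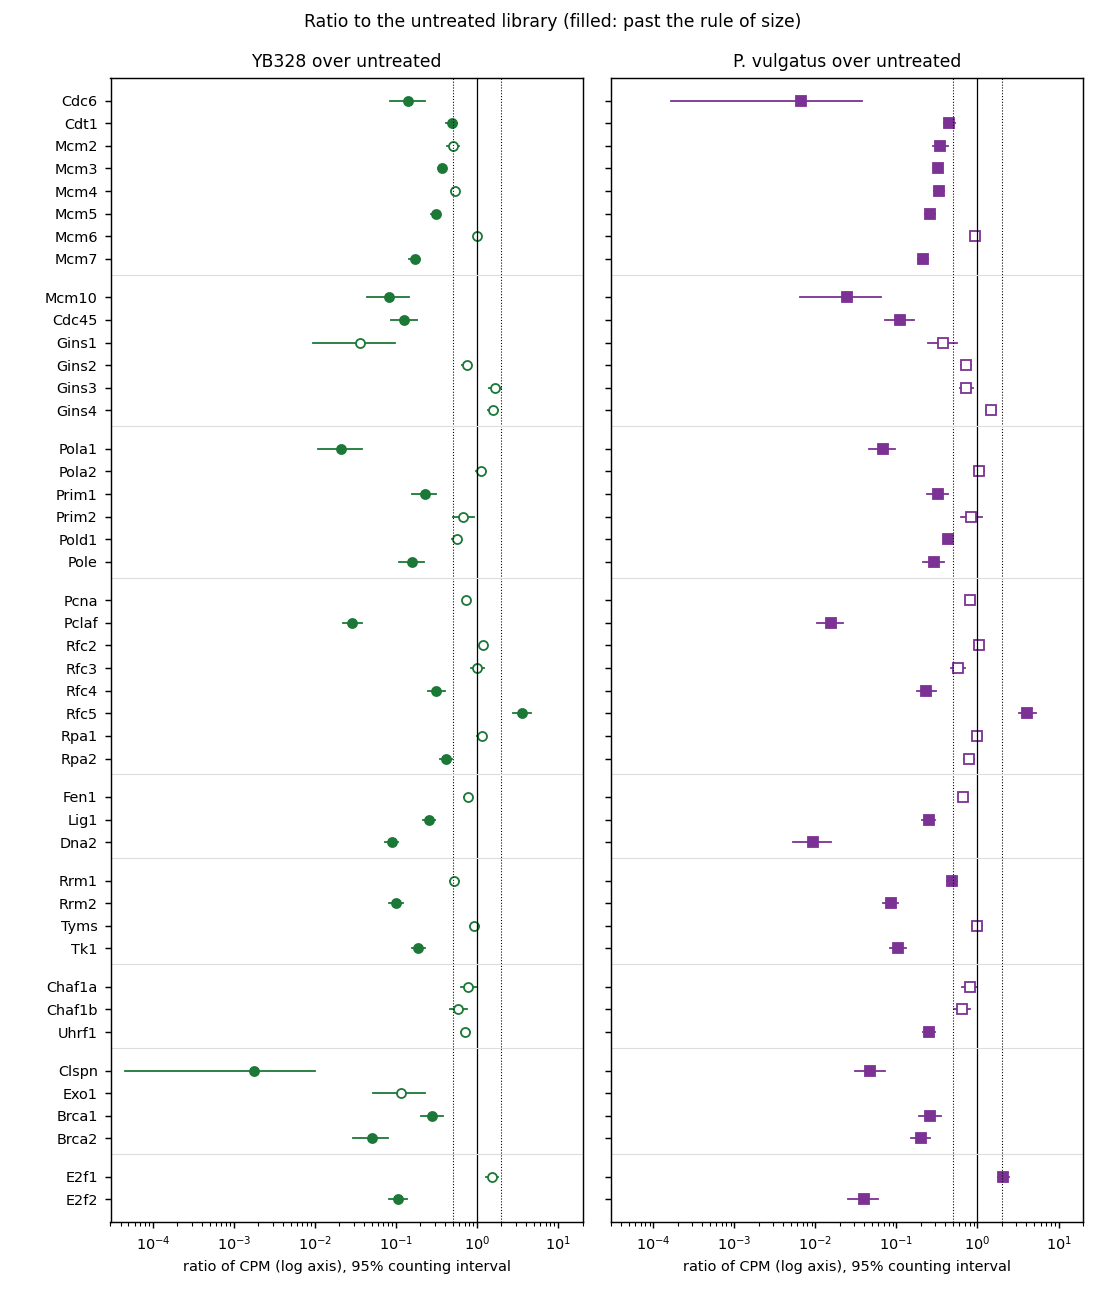
Ratio of each member's CPM to the untreated library (log axis) for YB328 (left) and P. vulgatus (right), with 95% counting intervals; filled points passed the rule of size and dotted lines mark 2-fold. Rfc5 lies to the right in both panels at 3.60 and 4.12, Clspn and Cdc6 have the widest intervals because they rest on 1 count with YB328 and with P. vulgatus, and Exo1 is missing on the right because it had 0 counts with P. vulgatus.

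Within deoxynucleotide synthesis, Rrm2 and Tk1 fell with each bacterium, Rrm1 fell with P. vulgatus, and Tyms did not pass. Rrm2, the small subunit of ribonucleotide reductase that is made in S phase, had 122 counts (4.48 CPM) with YB328, 101 counts (3.82 CPM) with P. vulgatus and 693 counts (44.7 CPM) in untreated cells. It fell 9.99-fold with YB328 (8.23 to 12.2) and 11.7-fold with P. vulgatus (9.48 to 14.6). Rrm1, the large subunit, was at 14.8, 13.8 and 28.2 CPM in the YB328, P. vulgatus and untreated libraries. Its 1.90-fold difference with YB328 (1.66 to 2.18) did not pass, but did with scaling on nuclear protein-coding genes without Lars2. Its 2.05-fold difference with P. vulgatus (1.78 to 2.36) passed. That call was lost with 2 CPM added, and after thinning each library at random to the total count of the shallowest. Such thinning leaves the counts in nuclear protein-coding genes unequal.

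Tk1, the cytosolic thymidine kinase of the salvage route, was at 5.80 CPM with YB328, 3.22 CPM with P. vulgatus and 30.7 CPM in untreated cells. It fell 5.29-fold with YB328 (4.41 to 6.37) and 9.53-fold with P. vulgatus (7.55 to 12.1). Tyms, which makes thymidylate anew, had 577 counts (21.2 CPM) with YB328, 594 counts (22.5 CPM) with P. vulgatus and 355 counts (22.9 CPM) in untreated cells. The untreated level of Tyms was 1.08 times the YB328 level (0.945 to 1.24) and 1.02 times the P. vulgatus level (0.891 to 1.16).

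Of the genes for chromatin behind the fork, none of 3 fell with YB328 and 1 fell with P. vulgatus. Chaf1a and Chaf1b encode subunits of the chromatin assembly factor CAF-1. Chaf1b was at 5.58 CPM with YB328, 6.13 CPM with P. vulgatus and 9.49 CPM in untreated cells, and Chaf1a at 7.92, 8.18 and 10.2 CPM, and neither passed. Ubxn6 on the other strand shares 52.5% of the exon bases of Chaf1a and was at 55.7, 61.4 and 60.0 CPM in the YB328, P. vulgatus and untreated libraries. Uhrf1, which brings the maintenance DNA methyltransferase to new DNA, had 552 counts (20.3 CPM) with YB328, 189 counts (7.16 CPM) with P. vulgatus and 440 counts (28.4 CPM) in untreated cells. It fell 3.97-fold with P. vulgatus (3.34 to 4.73), and its 1.40-fold difference with YB328 (1.23 to 1.59) did not pass.

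The checkpoint and repair members that reached the minimum all fell with each bacterium relative to untreated cells, and they reached it in untreated cells alone. Clspn, which encodes claspin, the adaptor that lets the checkpoint kinase ATR activate Chk1, had 1 count (0.0367 CPM) with YB328, 26 counts (0.984 CPM) with P. vulgatus and 319 counts (20.6 CPM) in untreated cells. It was 561-fold lower with YB328 (99.98 to 22229) and 20.9-fold lower with P. vulgatus (14.0 to 32.5). Brca2, which acts in the repair of broken DNA, was at 0.697 CPM with YB328, 2.80 CPM with P. vulgatus and 13.9 CPM in untreated cells, 19.99-fold lower with YB328 (12.5 to 33.9) and 4.98-fold lower with P. vulgatus (3.80 to 6.57). Brca1, which acts in the same repair, was at 2.46, 2.31 and 8.78 CPM in the YB328, P. vulgatus and untreated libraries, 3.57-fold lower with YB328 and 3.80-fold lower with P. vulgatus. Exo1, a nuclease of mismatch repair and end resection, had 10 counts with YB328, 0 with P. vulgatus and 50 in untreated cells, all below 5 CPM. Its level was 8.79-fold lower with YB328 (4.41 to 19.4) and, against a floor of 3 counts per library, at least 28.4-fold lower with P. vulgatus.

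The E2F activators went apart. E2f1 had 551 counts (20.2 CPM) with YB328, 731 counts (27.7 CPM) with P. vulgatus and 205 counts (13.2 CPM) in untreated cells. It rose 2.09-fold with P. vulgatus (1.79 to 2.45), and its ratio of 1.53 with YB328 (1.30 to 1.80) did not pass. The rise of E2f1 was lost with scaling on nuclear protein-coding genes, when 2 CPM was added before the log, and after thinning. E2f2 had 69 counts (2.53 CPM) with YB328, 25 counts (0.947 CPM) with P. vulgatus and 369 counts (23.8 CPM) in untreated cells, falling 9.41-fold with YB328 (7.26 to 12.3) and 25.2-fold with P. vulgatus (16.8 to 39.4).

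Set directly against each other, the bacteria-treated libraries differed for 8 of the 42 members at the minimum. With YB328, 5 members were higher than with P. vulgatus, 3 were lower and 34 did not pass, beside 3.40% of the 10699 genes higher and 2.89% lower. The median log2 ratio of the members was 0.11, beside 0.00 over all genes. Dna2 was 9.37-fold higher with YB328 than with P. vulgatus (5.50 to 17.2), Uhrf1 2.83-fold higher (2.40 to 3.36) and Gins3 2.27-fold higher (1.97 to 2.63). Cdc6 was 21.3-fold higher (3.45 to 879.9) on 22 counts against 1, and E2f2 was 2.67-fold higher (1.67 to 4.41). Clspn was 26.8-fold lower with YB328 than with P. vulgatus (4.41 to 1099.9) on 1 count against 26, Brca2 was 4.02-fold lower (2.40 to 7.05) and Pola1 3.18-fold lower (1.62 to 6.70). Cdc6, E2f2, Clspn, Brca2 and Pola1 were below 5 CPM with either bacterium and met the minimum through untreated cells alone, and none of these 5 passed with 2 CPM added. The Pola1 call was also lost under total count scaling and after thinning. With scaling and minimum taken from the bacteria-treated libraries, chosen after seeing the data, Gins3, Dna2 and Uhrf1 were higher and no member was lower, of 28 members at the minimum. Of the 9770 genes at that minimum, 2.89% were higher and 2.69% lower. Gins1, below the minimum, was 10.3-fold lower with YB328 than with P. vulgatus on 4 counts against 40 (3.73 to 39.7).

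**Figure D3:**
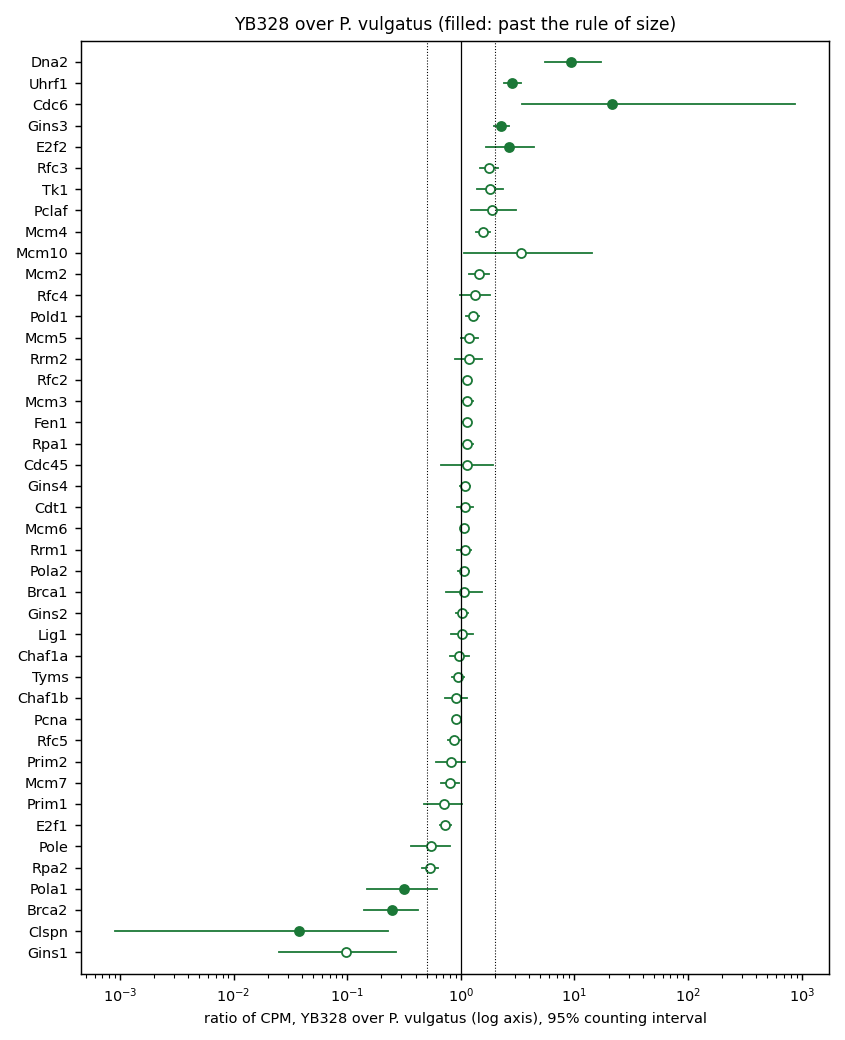
Ratio of CPM, YB328 over P. vulgatus (log axis, 95% counting intervals), for the 43 members with counts in both libraries, ordered by the log2 ratio after adding 0.5 CPM; filled points passed the rule of size. Dna2 at 9.37, Uhrf1 at 2.83 and Gins3 at 2.27 are the filled points on the right with levels above 5 CPM in a bacteria-treated library.

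Deposited TPM and scaled counts did not always give the same size of difference. Over the 44 members the median log2 ratio from TPM was -0.89 with YB328 and -1.16 with P. vulgatus, each less negative than from counts. Of the 9408 genes that reached 5 TPM in a library, 37.0% were higher and 12.9% lower by TPM with YB328, where counts gave 24.7% and 18.3%. With P. vulgatus TPM gave 33.9% higher and 14.9% lower, where counts gave 25.2% and 18.8%. On the TPM scale all genes had a median log2 ratio of 0.61 with YB328 and 0.49 with P. vulgatus. By TPM, 13 of these 32 members were lower and 3 higher with YB328 (Rfc5, Gins3 and Gins4), and 16 were lower and 2 higher with P. vulgatus. The calls of Cdt1 in both comparisons and of Rfc4 with YB328 were lost, and Cdc6, Mcm2, Mcm10, Cdc45, Pola1, Pole, Brca1 and E2f2 were below 5 TPM in every library. The 2 measures differed by at least 1 on the log2 scale for 6 members with YB328 (Mcm3, Gins2, Pola1, Pclaf, Rfc4 and Brca1) and for 5 with P. vulgatus (Cdc6, Mcm3, Pola1, Dna2 and E2f2).

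**Figure D4:**
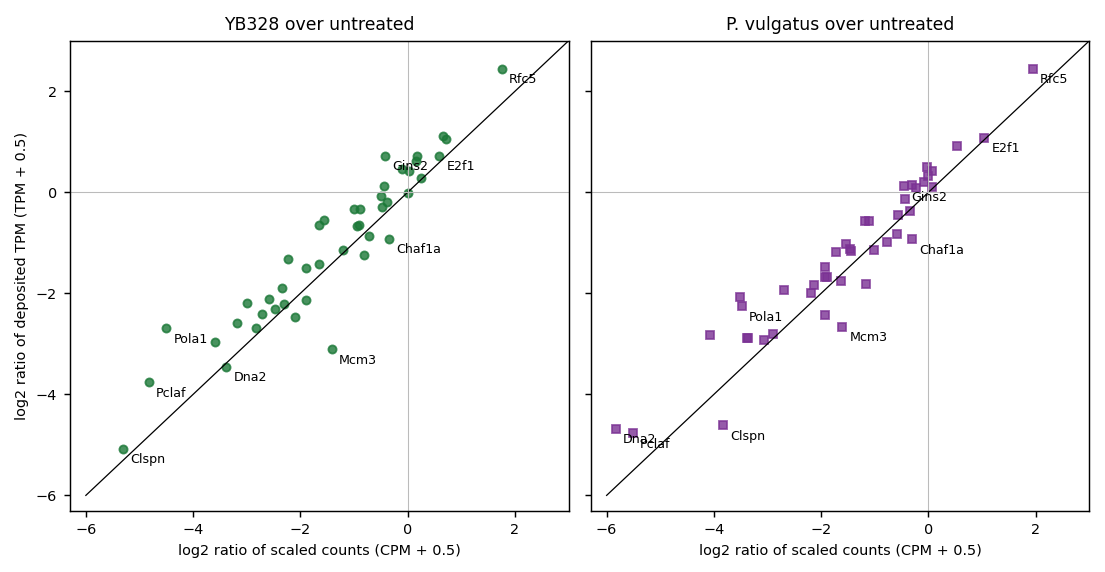
Log2 ratio of deposited TPM (vertical) against log2 ratio of scaled counts (horizontal) for each of the 44 members, YB328 over untreated on the left and P. vulgatus over untreated on the right, with 0.5 added to each value and the line of equality drawn. Most points lie above the line, whereas Mcm3 lies well below it in both panels and Clspn only with P. vulgatus.

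A longer transcript gives more reads, a length that TPM divides out and counts keep, and some members had longer implied transcripts in bacteria-treated cells. Of the 26 members with at least 100 counts in every library, the implied length was at least 1.5 times as long as in untreated cells for 4 with YB328 (15.4%) and for 5 with P. vulgatus (19.2%). Over all 8218 such genes the shares were 7.53% and 7.84%. Mcm3, Pold1, Lig1 and Chaf1a were longer with each bacterium, and Rrm1 with P. vulgatus. Pold1 was at 3262 bases with YB328, 3642 bases with P. vulgatus and 1795 bases in untreated cells, and Chaf1a at 6473, 6345 and 2792 bases. Clspn, with too few counts for a length with YB328, was at 5577 bases with P. vulgatus and 1267 bases in untreated cells. Its annotated coding transcripts have 5027, 1160, 785 and 608 bases. These lengths are read from the ratio of the deposited count to the deposited TPM, and which transcripts the reads came from was not tested.

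Some members share a start region with a gene on the other strand. Of these 7 neighbours 1 was below the minimum, 2 rose with YB328 and none fell, where 18.3% of all genes fell with YB328 and 18.8% with P. vulgatus, which is too small a count to set apart from that background. The starts of Brca1 and Nbr1, an autophagy receptor gene, lie 194 bases apart, and Nbr1 rose 2.46-fold with YB328 and 3.31-fold with P. vulgatus (59.4, 80.0 and 24.1 CPM in the YB328, P. vulgatus and untreated libraries). Mcm4 and Prkdc, which encodes the catalytic subunit of a DNA repair kinase, start 466 bases apart. Prkdc was at 8.29 CPM with YB328, 1.48 CPM with P. vulgatus and 2.78 CPM in untreated cells, 2.99-fold higher with YB328 than in untreated cells (2.15 to 4.24) and 5.62-fold higher than with P. vulgatus (3.98 to 8.11). The neighbours of Gins1, Pole, Rpa1 and Fen1, namely Abhd12, Pxmp2, Smyd4 and Tmem258, did not pass in any comparison, and Afmid beside Tk1 was below the minimum.

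Other genes of the same pathways, from lists chosen with earlier results known, also had mixed directions. As with the members, a listed gene that reached 5 CPM in untreated cells alone could pass mainly as a lower gene. For these lists and those below, the shares over all genes at the minimum were 18.3% fallen and 24.7% risen with YB328. With P. vulgatus those shares were 18.8% and 25.2%. No list was tested against them. Of 14 origin recognition and firing genes at the minimum, 6 fell and 1 rose with each bacterium. Cdc7, the kinase that fires origins, was at 0.367 CPM with YB328, 1.14 CPM with P. vulgatus and 19.2 CPM in untreated cells, and Mcmbp, an MCM-binding protein, rose to 76.8 and 66.9 CPM with YB328 and P. vulgatus, against 32.1 CPM in untreated cells. Of 13 other polymerase, loader and RPA subunits, 4 fell and 1 rose with YB328, and 5 fell and 2 rose with P. vulgatus. Pold2, a partner of Pold1, rose to 19.4 CPM with YB328 and 14.8 CPM with P. vulgatus, against 4.001 CPM in untreated cells. Of 12 fork protection and checkpoint genes, 5 fell and none rose with each bacterium. Chek1, the kinase downstream of claspin, had 0.257 CPM with YB328, 0 counts with P. vulgatus and 7.94 CPM in untreated cells.

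The lists of nucleotide supply held falling genes. That of breakdown and salvage held 6 rising genes with YB328, which is 54.5% beside 24.7% over all genes. Of 14 other deoxynucleotide and thymidylate supply genes, 5 fell and none rose with each bacterium. Dut, which removes dUTP, was at 7.78, 10.5 and 45.5 CPM in the YB328, P. vulgatus and untreated libraries, and Dtymk, the thymidylate kinase, at 14.4, 16.1 and 64.7 CPM. Of the 5 genes of pyrimidine synthesis, 4 fell with YB328 and 3 with P. vulgatus, and 1 rose with each, namely Ctps2 (25.4, 24.5 and 8.20 CPM), while its paralogue Ctps, a CTP synthase, was at 2.24, 0.909 and 14.8 CPM. Of 12 purine synthesis genes, 2 fell and 2 rose with YB328, and 3 fell and 2 rose with P. vulgatus. With YB328 that is 16.7% in each direction, both below the shares over all genes. Of 11 breakdown and salvage genes, 6 rose and 1 fell with YB328, and 5 rose and 2 fell with P. vulgatus. Cmpk2, an interferon-induced nucleotide kinase, rose to 422 CPM with YB328 and 394 CPM with P. vulgatus, against 1.42 CPM in untreated cells. Samhd1, the enzyme that breaks down deoxynucleotides, was at 696, 558 and 304 CPM in the YB328, P. vulgatus and untreated libraries, which passed with YB328 (2.29-fold) but not with P. vulgatus (1.84-fold).

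Among cell cycle regulators, 4 of 11 G1/S cyclins and kinases fell and 1 rose with each bacterium. Ccnd1, a D-type cyclin, was at 1.80 CPM with YB328, 1.91 CPM with P. vulgatus and 39.1 CPM in untreated cells, while Ccnd2, another, rose to 1191 and 1369 CPM with YB328 and P. vulgatus, against 226 CPM in untreated cells. Of 7 CDK inhibitors and pocket proteins, 3 rose and none fell with each bacterium, where 24.7% of all genes rose with YB328 and 25.2% with P. vulgatus. Cdkn1a, which encodes the inhibitor p21, was at 1887, 2086 and 929.9 CPM in the YB328, P. vulgatus and untreated libraries, and Cdkn1b did not pass (15.9, 14.2 and 15.2 CPM). Of 8 other E2F, DP, MYB and MYC factors, 3 fell and 1 rose with YB328, and 2 fell and 1 rose with P. vulgatus. The risers were 12.5% of that list with each bacterium, below the shares over all genes. Myc, a growth-promoting factor, was at 4.11, 4.32 and 36.3 CPM, E2f8, a repressor of the E2F family, at 1.69, 0.984 and 8.84 CPM, and its relative E2f7 was below the minimum.

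The 18 mitosis genes summed to 36.5 CPM with YB328, 38.5 CPM with P. vulgatus and 312 CPM in untreated cells. Only 2 of them reached 5 CPM with YB328 and 2 with P. vulgatus, against 15 in untreated cells, so most met the minimum through untreated cells alone and could pass mainly as lower genes. Of those 15, 15 fell with YB328 and 13 with P. vulgatus, counts that this minimum favours. Top2a, the topoisomerase that untangles chromosomes, was at 2.61, 2.08 and 77.1 CPM in the YB328, P. vulgatus and untreated libraries. Mki67, a marker of dividing cells, was at 7.01 CPM with YB328, 2.35 CPM with P. vulgatus and 29.2 CPM in untreated cells, and was 2.99-fold higher with YB328 than with P. vulgatus. None of 5 mismatch repair genes passed in either comparison. Of 12 chromatin assembly and maintenance genes, 5 fell and 2 rose with YB328, and 4 fell and 1 rose with P. vulgatus. Dnmt1, the maintenance DNA methyltransferase that works with Uhrf1, was at 82.4 CPM with YB328, 56.6 CPM with P. vulgatus and 29.0 CPM in untreated cells, which passed with YB328 but not with P. vulgatus.

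**Figure D5:**
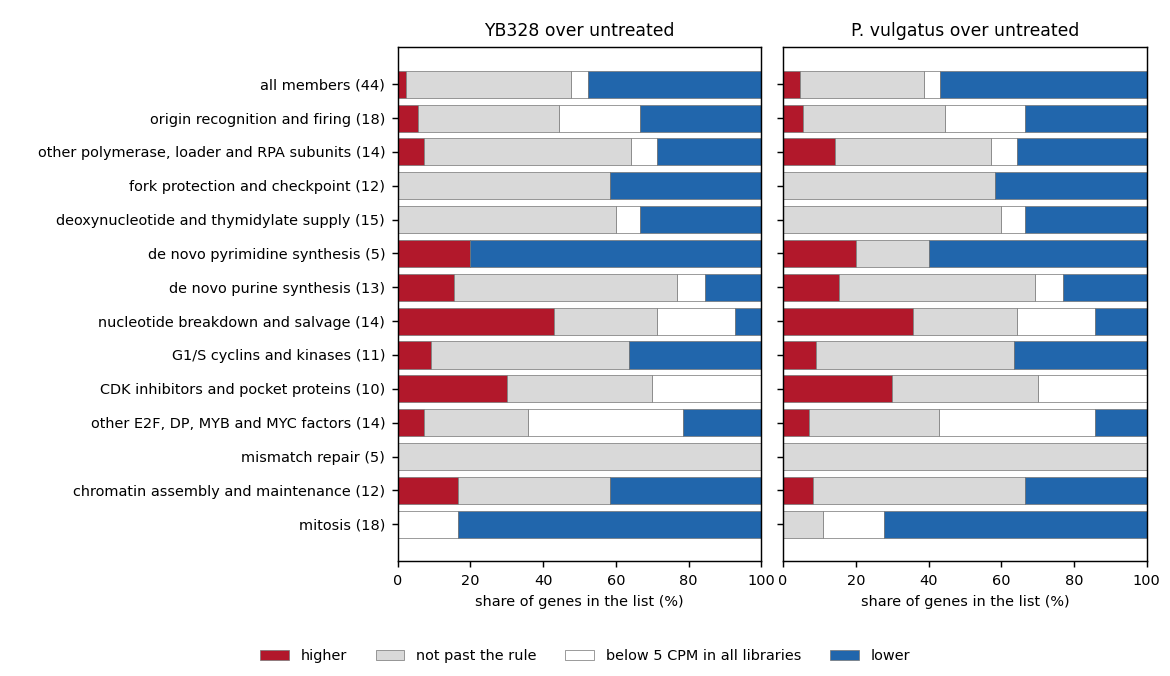
Share of genes in each list that were higher, not past the rule of size, below 5 CPM in all libraries or lower, YB328 over untreated on the left and P. vulgatus over untreated on the right, with the number of genes in parentheses. The mitosis list is mostly lower, with 15 genes at 5 CPM in untreated cells but 2 with each bacterium, mismatch repair has no gene past the rule, and breakdown and salvage shows the widest band of higher genes.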

How the data were processed

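Per the labels' protocols, RNA came from an RNeasy Micro kit, and SMART-Seq v4 cDNA went into Nextera XT libraries, a method that keeps no strand information. Per the submitters' processing notes, DRAGEN and the genome GRCm38 were used (no version); for the counting tool and annotation, the sources used here give nothing. The authors' table has, per the file headers, a count and a TPM per gene and library. The deposited counts are estimated counts per gene, unscaled; 11 members had a value that was not whole, and all were rounded before intervals or thinning were computed. The deposited TPM values correct for length. All 44 members had the same coordinates in GENCODE M21, from which exon overlaps and transcript lengths were read.

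Counts were scaled by TMM with edgeR 4.0.16 in R 4.3.3 (factors only). Everything else used pandas 2.3.3, scipy 1.17.1, numpy 2.4.6 and matplotlib 3.10.9 under Python 3.11.15. Genes passed by at least 5 CPM in 1 library or more, an absolute log2 ratio of 1 or more with 0.5 CPM added, and a 95% Clopper-Pearson interval (exact, conditional on the summed counts) clear of 1. Folds are CPM ratios without the added 0.5; a count of 0 was set to a floor of 3 counts, which is 0.110, 0.114 and 0.194 CPM with YB328, with P. vulgatus and in untreated cells. Because the amplified reads carry no molecular identifiers, intervals and floors express counting error alone.

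Members and lists were chosen with earlier results of these data known. Values in every library are given, per role, for the members with the highest mean TPM and the largest change with YB328, for members that go against their role or pass between the bacteria, and for those below the minimum. From the other lists a few genes with large ratios and a fixed panel are named; 1 further list is not reported here. Implied transcript length is the count divided by TPM, calibrated on genes with 1 protein-coding transcript and at least 500 counts, of which 97.8%, 98.7% and 98.7% came within 0.8 to 1.25 of the annotated length in the YB328, P. vulgatus and untreated libraries.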

Additional observations from a re-analysis of the deposited data

How the results depend on the processing

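No paired analysis was possible because each group has 1 library, and for the same reason no replicate could be left out. No member that passed changed direction under any alternative, and the median log2 ratio of the members stayed below 0 for YB328 and for P. vulgatus over untreated in each of them. Deposited TPM gave 3 members higher and 13 lower with YB328 than in untreated cells, 16 lower with P. vulgatus, and 1 lower with YB328 than with P. vulgatus. Of the 9 calls lost on TPM with YB328, all but Cdt1 and Rfc4 were below 5 TPM in every library. A minimum of 20 CPM left 13 lower with YB328 and 16 lower with P. vulgatus. A log2 ratio of at least 2 left 0 higher and 13 lower with YB328, 0 higher and 12 lower with P. vulgatus, and 1 higher and 0 lower between YB328 and P. vulgatus. Adding 2 CPM gave 1 higher with P. vulgatus than in untreated cells, and 3 higher and 0 lower with YB328 than with P. vulgatus. Scaling on nuclear protein-coding genes without Lars2, and thinning to the total count of the shallowest library, each left 1 higher with P. vulgatus than in untreated cells. The nuclear scaling, with trimmed-mean factors computed on those genes, gave 25 lower with YB328 and 26 lower with P. vulgatus. The main setting gave 21 and 25. Scaling and minimum from the bacteria-treated libraries gave 3 higher and 0 lower with YB328 than with P. vulgatus, beside 2.89% and 2.69% of 9770 genes. Leaving aside the stricter minimum and ratio, 13 of the 22 calls for YB328, 16 of the 27 for P. vulgatus and 3 of the 8 between the bacteria held in all settings. The other counts of members, under the remaining settings, stayed within 1.5 times the value reported. Depth limits the low genes most: Cdc6 with P. vulgatus and Clspn with YB328 rest on 1 count each.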
